A study of Mus musculus with 5 samples.

Results

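Genes that mark resident fibroblasts of the heart were measured in RNA sequencing libraries of mouse heart tissue. The set held 10 genes, taken by symbol: Pdgfra, Ddr2, Cd248, Scara5, Tcf21, Gsn, Dpt, Fbln1, Mfap5 and Pi16. All 10 were among the 17818 gene symbols of the deposited table, and all 10 passed the filter on low values (at least 1 CPM, the count scaled to the library total, in at least 2 libraries), which kept 12734 genes for testing.

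Resident fibroblasts lie between the muscle fibres and around the vessels of the heart, where they maintain the collagen scaffold. After injury or under chronic inflammation they can take on an activated state, in which they divide, make more matrix and lose part of their resting programme. Most adult cardiac fibroblasts descend from the epicardium, and no single gene marks them alone, so a set of surface receptors, a transcription factor and secreted matrix proteins is used together. Several members are also made by other cells: Cd248 by pericytes, and Gsn by heart muscle and smooth muscle.

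The hearts came from male mice, 12 months after bone marrow transplantation. In 2 libraries the animals were labelled Tet2+/- and received oridonin (Tet2 oridonin), a plant diterpenoid isolated from Rabdosia rubescens. In 2 libraries the animals were labelled Tet2+/- and received vector (Tet2 vector), and in 1 library the animal was labelled WT and received vector (WT vector). The transplant and a treatment time of 2 months were common to all groups, although the sample titles give 1 or 2 months, a number that served here only as the replicate number. The Tet2 enzyme oxidises methyl groups on DNA cytosines, and mutations of it in blood stem cells are a common form of clonal hematopoiesis. The labels used here do not say in which cells of the animal the Tet2 genotype holds, how many hearts entered a library, or which part of the heart was taken. P-values therefore measure only the spread between these samples.

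The libraries held 14574823 to 15535778 counts, and genes of the mitochondrial genome took 23.6% to 30.2% of them. In the deposited log2 values each Tet2 column was a mix, with a weight of 0.75 for its own library and 0.25 for the other replicate. The values below have this mix undone, which left group means as they were. The WT column has no replicate and was taken as it stands, although its values gave whole counts for only 33.5% of genes, against 99.92% to 99.94% in the unmixed Tet2 columns. It thus does not hold the counts of a single library as they were, and every WT level and comparison below rests on it. Tet2 vector replicate 1 stood apart by markers of the atrial chambers: the 9 listed atrial genes summed to 72.5 and 66.2 CPM in the Tet2 oridonin libraries, 1193 and 133 CPM in the Tet2 vector libraries and 112 CPM in the WT library. Tet2 was at 9.43 and 17.9 CPM in the Tet2 oridonin libraries, 19.2 and 7.76 CPM in the Tet2 vector libraries and 15.6 CPM in the WT library, a level that does not check the genotype of transplanted blood cells. The oridonin target named for the series, Kdm5c, was at 27.5 and 31.6 CPM in the Tet2 oridonin libraries, 37.7 and 22.1 CPM in the Tet2 vector libraries and 46.4 CPM in the WT library.

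Promoter windows are shown here for Tcf21, the transcription factor of the set, and for Dpt and Gsn. Tcf21 belongs to the basic helix-loop-helix family, whose dimers bind E-boxes such as CAGCTG. Capitals mark each CAGCTG on either strand, and the windows come from RefSeq promoters (GRCm38.p6). The windows are Dpt on the plus strand at chr1:164796413-164796643, Gsn on the plus strand at chr2:35256109-35256358 and Tcf21 on the minus strand at chr10:22820175-22820393, which holds no CAGCTG. Those of Dpt and Tcf21 end directly before the gene start of GENCODE M21. That of Gsn ends at 35256358, short of its GENCODE M21 start at 35256380.
Dpt: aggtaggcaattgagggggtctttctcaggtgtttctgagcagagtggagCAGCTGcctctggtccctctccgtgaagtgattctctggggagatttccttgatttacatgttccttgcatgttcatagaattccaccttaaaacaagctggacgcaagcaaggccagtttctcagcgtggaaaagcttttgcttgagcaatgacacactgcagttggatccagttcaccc
Gsn: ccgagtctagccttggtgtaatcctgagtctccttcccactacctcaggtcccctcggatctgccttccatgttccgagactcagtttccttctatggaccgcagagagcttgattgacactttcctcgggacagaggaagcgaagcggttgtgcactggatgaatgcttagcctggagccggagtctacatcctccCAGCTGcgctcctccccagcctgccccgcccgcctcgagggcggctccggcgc
Tcf21: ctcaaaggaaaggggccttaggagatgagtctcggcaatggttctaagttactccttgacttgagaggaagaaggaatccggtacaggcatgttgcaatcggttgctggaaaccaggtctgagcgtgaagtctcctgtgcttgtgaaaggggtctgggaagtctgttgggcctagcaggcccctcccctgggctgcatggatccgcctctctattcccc

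Of the 10 members, 7 were matched to RefSeq promoters, with 10 windows of up to 250 bases between them. Over the full 250 bases, CAGCTG was found in 4 of these 10 windows and in 13.0% of all 32851 windows. Some members have several windows. Counted by gene, it was found for 3 of the 7 members and for 14.7% of 27025 genes. A second Gsn window with CAGCTG, at chr2:35266494-35266743, lies within the annotated gene. In 1 window of Dpt and 1 other of Gsn, CAGCTG lay upstream of the annotated gene start. In the window of Fbln1 it lay past that start, and another Fbln1 window that overlaps it holds none. An AP-1 motif (TGANTCA) was in 0 of the 10 windows and in 6.75% of all windows. A TEAD motif (GGAATG) was in 0 of the 10 and in 12.6% of all. The letters of a TATA box (TATAAA) were in 1 of the 10, that of Ddr2, and in 12.4% of all. That Ddr2 window, at chr1:170088945-170089194, lies within the annotated gene, and its match is on the strand opposite to Ddr2. These are matches of letters on either strand and do not show binding.

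All 10 members were detected in all 5 libraries, with the lowest count at 102 (Tcf21) and the highest at 29158 (Gsn). Levels between genes were compared as CPM per kilobase of the longest coding transcript. On that scale Gsn was highest, at a mean of 565 over the 5 libraries, followed by Dpt at 59.4 and Fbln1 at 23.5. Mfap5 (15.7), Pi16 (15.3), Scara5 (9.85), Pdgfra (6.71), Tcf21 (5.13), Cd248 (4.52) and Ddr2 (3.72) came next. The ranges of Gsn and Dpt and of Dpt and Fbln1 did not overlap over the 5 libraries. Those of all other neighbours in this order overlapped, although Fbln1 was higher than Mfap5, and Pdgfra higher than Tcf21, within each of the 5 libraries. For the remaining 5 pairs of neighbours the upper gene was higher in 2 to 4 of the 5 libraries.

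**Figure D1:**
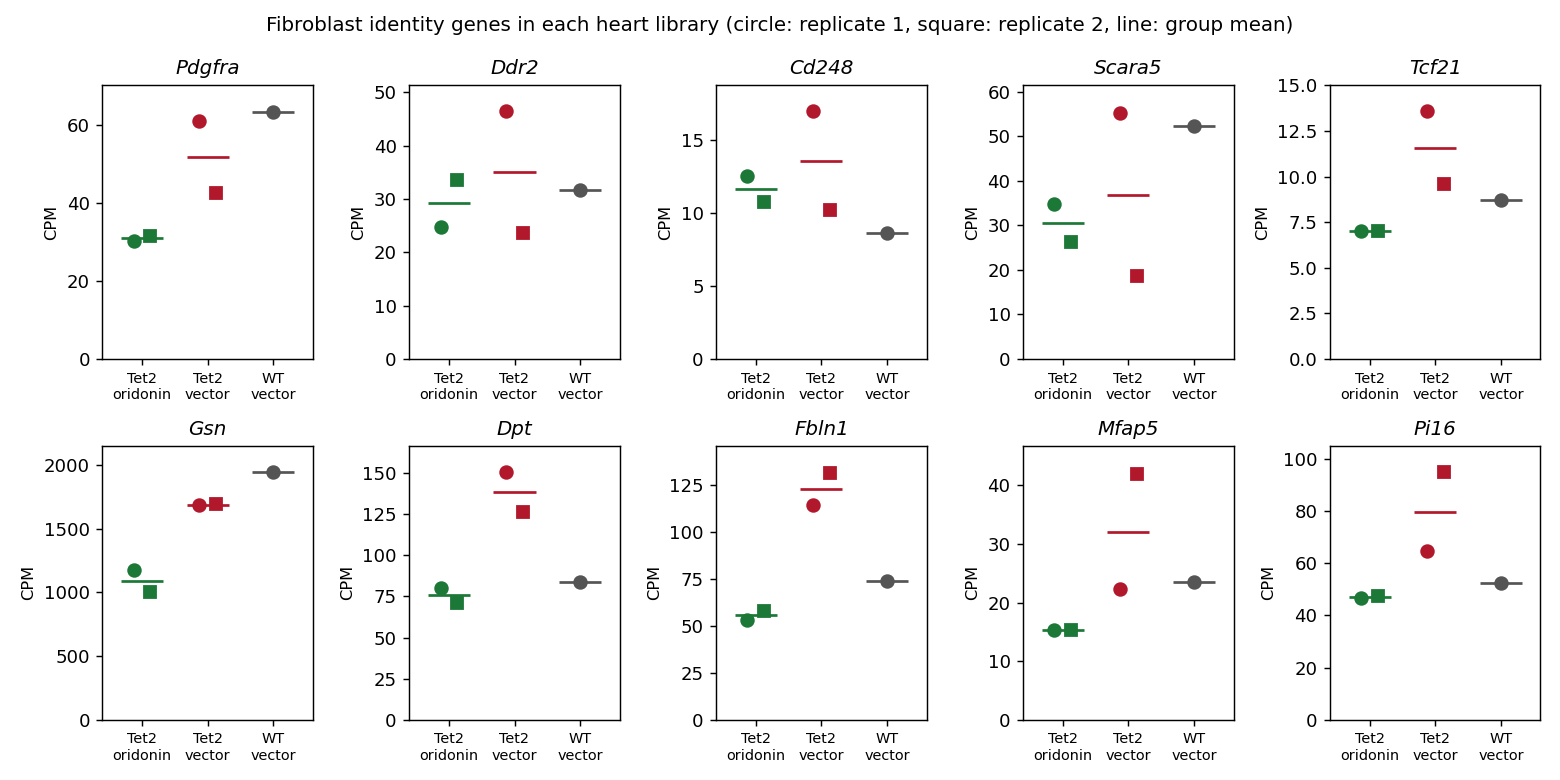
Level in CPM of each of the 10 fibroblast identity genes (1 panel each, axes from 0) in the Tet2 oridonin, Tet2 vector and WT vector libraries. Circles are replicate 1, squares replicate 2 and lines group means. In 7 panels, Pdgfra, Tcf21, Gsn, Dpt, Fbln1, Mfap5 and Pi16, both oridonin points lie below both vector points.

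The first comparison asked whether oridonin altered the fibroblast identity genes in Tet2 hearts. In 7 of the 10 genes both Tet2 oridonin libraries were lower than both Tet2 vector libraries, and in 0 of 10 were both higher. Over all 12734 genes tested, groups without overlap made up 17.8% in the lower and 8.37% in the higher direction. The median log2 fold change of oridonin over vector was -0.71 over the members and -0.05 over all genes tested, and all 10 members were below 0, against 59.8% of all genes. In a library of heart tissue, fewer fibroblasts and less of these transcripts per fibroblast cannot be told apart. None of the members passed a false discovery rate (FDR) of 0.05, in a limma fit across all genes with Benjamini-Hochberg adjustment. Limma called 0 of 12734 genes (0%), the same fit with voom weights called 0, and 331 genes were at an unadjusted p under 0.05. At that unadjusted p there were 7 members lower, where 1.93% of all genes were, and 0 members higher, where 0.668% of all genes were. That count was 4 without oridonin replicate 1 and 4 without oridonin replicate 2. Without Tet2 vector replicate 1, the library with atrial markers, it was 6. In 7 members both oridonin libraries then lay below the 1 vector library left, where 35% of all genes did.

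Among the surface proteins, Pdgfra, the receptor tyrosine kinase for platelet-derived growth factor used most often to sort cardiac fibroblasts, is a gene of chromosome 5 (75152292 to 75198215, plus strand, GRCm38, as for all gene positions here). It was at 30.4 and 31.6 CPM in the Tet2 oridonin hearts, against 61.0 and 42.6 CPM in the Tet2 vector hearts, with 63.5 CPM in the WT heart. Both oridonin libraries were lower than each of the other 3, with a log2 fold change over vector of -0.72 (standard error, SE, 0.23; limma, adjusted p = 1.00). Exons of Pdgfra overlap Gm42802 on the opposite strand and Mir7025, and the labels do not state strand, so reads there cannot be told apart.

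Ddr2 (chromosome 1, 169972307 to 170110762, minus strand), a receptor tyrosine kinase for fibrillar collagen, did not separate the groups. It was at 24.7 and 33.6 CPM in the Tet2 oridonin hearts, against 46.4 and 23.5 CPM in the Tet2 vector hearts, with 31.6 CPM in the WT heart. The 2 vector libraries held the highest and the lowest level of all 5, and the log2 fold change of oridonin over vector had a 95% interval from -1.07 to 0.68 around -0.20 (limma, adjusted p = 1.00). Its exons overlap 3110045C21Rik on the opposite strand.

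Cd248 (chromosome 19, 5068078 to 5070682, plus strand) encodes endosialin, a transmembrane glycoprotein of stromal cells. It was at 12.5 and 10.7 CPM in the Tet2 oridonin hearts, against 16.9 and 10.2 CPM in the Tet2 vector hearts, with 8.58 CPM in the WT heart. The oridonin levels lay between the 2 vector levels, with a log2 fold change of -0.18 (95% interval from -0.93 to 0.57; limma, adjusted p = 1.00). Scara5 (chromosome 14, 65666403 to 65764826, plus strand), a scavenger receptor that binds ferritin, was at 34.8 and 26.1 CPM in the Tet2 oridonin hearts, against 55.1 and 18.6 CPM in the Tet2 vector hearts, with 52.2 CPM in the WT heart. Here too the oridonin levels lay between those of the 2 vector libraries. The log2 fold change was -0.09, with an interval from -1.30 to 1.13 (limma, adjusted p = 1.00). Without Tet2 vector replicate 1 the log2 fold change was 0.19 for Cd248, 0.29 for Ddr2 and 0.70 for Scara5, and these were then the 3 members higher without overlap, where 36.4% of all genes were.

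Tcf21 (chromosome 10, 22817281 to 22820174, minus strand) encodes the transcription factor that epicardial cells of the mouse embryo need to become cardiac fibroblasts. It was the member lowest in CPM in each Tet2 oridonin library, at 7.04 and 7.0 CPM, against 13.6 and 9.59 CPM in the Tet2 vector hearts, with 8.70 CPM in the WT heart. The groups did not overlap and the oridonin libraries were also the lowest of all 5, with a log2 fold change over vector of -0.70 (SE 0.27; limma, adjusted p = 1.00). Gsn (chromosome 2, 35256380 to 35307892, plus strand), which encodes the actin-severing protein gelsolin, was at 1178 and 1005 CPM in the Tet2 oridonin hearts, against 1682 and 1691 CPM in the Tet2 vector hearts, with 1944 CPM in the WT heart. The 2 vector libraries were almost equal, and both oridonin libraries lay below all others, at a log2 fold change of -0.63 (SE 0.15; limma, adjusted p = 1.00).

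The 3 members that build the extracellular matrix, Fbln1, Mfap5 and Dpt, had the log2 fold changes of oridonin over vector farthest below 0. That order moved with the libraries used. Leaving out each Tet2 library in turn gave -1.45 to -0.53 for Mfap5, -0.99 to -0.74 for Dpt and -1.01 to -0.46 for Pi16. Fbln1 (chromosome 15, 85205949 to 85286535, plus strand), a calcium-binding glycoprotein of elastic fibres and basement membranes, was at 53.2 and 58.1 CPM in the Tet2 oridonin hearts, against 114 and 131 CPM in the Tet2 vector hearts, with 74.0 CPM in the WT heart. Both oridonin libraries lay below WT and both vector libraries above it. The log2 fold change of oridonin over vector was -1.14 (SE 0.18, 95% interval from -1.57 to -0.71; limma, adjusted p = 0.691). Mfap5 (chromosome 6, 122505845 to 122529290, plus strand), a glycoprotein that binds fibrillin microfibrils, was at 15.4 and 15.4 CPM in the Tet2 oridonin hearts, against 22.3 and 42.0 CPM in the Tet2 vector hearts, with 23.6 CPM in the WT heart. The 2 oridonin levels were alike and the lowest of the 5, while the vector levels lay on either side of WT. Its log2 fold change was -0.99 (SE 0.32; limma, adjusted p = 1.00).

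Dpt (chromosome 1, 164796644 to 164824266, plus strand), dermatopontin, which binds collagen and decorin, was at 80.3 and 71.2 CPM in the Tet2 oridonin hearts, against 150 and 126 CPM in the Tet2 vector hearts, with 84.0 CPM in the WT heart. The groups did not overlap, and the WT level was near the oridonin levels. Oridonin over vector gave a log2 fold change of -0.87 (SE 0.18; limma, adjusted p = 1.00). Pi16 (chromosome 17, 29317680 to 29330593, plus strand), a peptidase inhibitor of the CAP family that marks adventitial fibroblasts in mouse tissues, was at 46.5 and 47.4 CPM in the Tet2 oridonin hearts, against 64.7 and 94.8 CPM in the Tet2 vector hearts, with 52.4 CPM in the WT heart. The oridonin libraries were again the lowest of the 5. The log2 fold change was -0.74 (SE 0.23; limma, adjusted p = 1.00), and exons of Pi16 overlap AC162182.1 on the opposite strand.

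**Figure D2:**
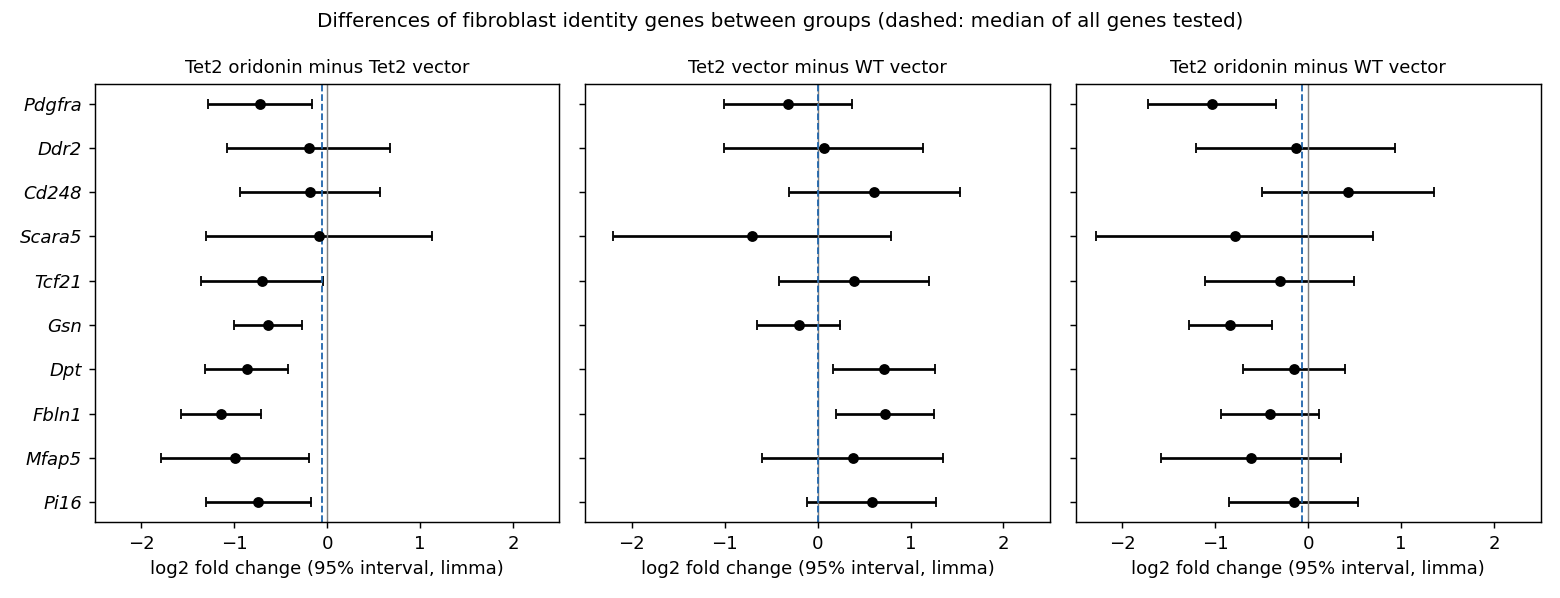
Log2 fold change of each fibroblast identity gene in the 3 comparisons, with 95% intervals from limma. The dashed line is the median of all genes tested. In Tet2 oridonin minus Tet2 vector all 10 points lie below 0, from -1.14 (Fbln1) to -0.09 (Scara5). In Tet2 vector minus WT vector they lie on both sides, from -0.70 (Scara5) to 0.72 (Fbln1).

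The second comparison asked how Tet2 vector hearts stood against the WT heart. It shares the 2 Tet2 vector libraries with the first, so that its values are set side by side with those above and are not independent of them. Both vector libraries were above WT for 5 members, Tcf21, Dpt, Pi16, Cd248 and Fbln1, and both were below it for 2, Pdgfra and Gsn. The background was 35.4% of all genes for the higher and 32.3% for the lower direction, since the WT group is a single library. For Ddr2, Scara5 and Mfap5 WT lay between the 2 vector libraries. The median log2 fold change was 0.38 over members and 0.0050 over all genes. Limma called 0 members and 0 of 12734 genes (0%) at an FDR of 0.05, voom weights gave 0, and 1221 genes were at an unadjusted p under 0.05.

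The members with the smallest p in this comparison were Fbln1, with a log2 fold change of 0.72 (SE 0.22; limma, adjusted p = 0.442), and Dpt, with 0.72 (SE 0.22; limma, adjusted p = 0.459). These were the 2 members higher at an unadjusted p under 0.05, where 5.06% of all genes were, and 0 members were lower, where 4.53% were. The count moved with the libraries used: 6 members were at an unadjusted p under 0.05 without Tet2 vector replicate 1, and 0 without oridonin replicate 1 or without oridonin replicate 2. Without Tet2 vector replicate 1 the median over members was 0.19 and 4 members were below WT, where 53.8% of all genes were. For Pdgfra, Tet2 vector differed from WT by a log2 fold change of -0.32 (95% interval from -1.0 to 0.37; limma, adjusted p = 0.745), and by -0.09 with the trend on transcript length removed. For Gsn it was -0.20 (95% interval from -0.65 to 0.24; limma, adjusted p = 0.745).

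The third comparison set Tet2 oridonin hearts against the WT heart and shares libraries with both others. Both oridonin libraries were below WT for 8 members, where 41.7% of all genes were, and above WT for 1, Cd248, where 31.9% were. For Ddr2 WT lay between them. The median log2 fold change was -0.36 over members and -0.06 over all genes. Pdgfra had the lowest value, -1.03 (SE 0.28, 95% interval from -1.72 to -0.35; limma, adjusted p = 0.669). Gsn had -0.84 (SE 0.18; limma, adjusted p = 0.610). These were the 2 members lower at an unadjusted p under 0.05, where 3.53% of all genes were, and 0 were higher, where 2.69% were. That count was 4 without Tet2 vector replicate 1 and 4 without replicate 2. The log2 fold changes nearest to 0 were those of Ddr2 at -0.13, Dpt at -0.15 and Pi16 at -0.16, and that of Ddr2 changed sign under some other processing. Limma called 0 members and 0 of 12734 genes (0%) at an FDR of 0.05, voom weights gave 0, and 791 genes were at an unadjusted p under 0.05.

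Read library by library, 8 members had their highest level in a Tet2 vector library and 2, Pdgfra and Gsn, in the WT library. The lowest level was in an oridonin library for 7 members, in Tet2 vector replicate 2 for Ddr2 and Scara5, and in WT for Cd248. The median member log2 level relative to WT was -0.41 and -0.33 in the Tet2 oridonin libraries and 0.43 and 0.19 in the Tet2 vector libraries. The summed level of the 10 members was 1482 and 1306 CPM in the Tet2 oridonin libraries, 2226 and 2189 CPM in the Tet2 vector libraries and 2342 CPM in the WT library. Gsn made up most of that sum. Without it the sum was 305 and 301 CPM with oridonin, 544 and 499 CPM under vector and 399 CPM in WT.

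For 9 of the 10 members, all but Gsn, the replicates differed more in the Tet2 vector pair than in the oridonin pair. The log2 difference of replicate 1 minus replicate 2 was 1.57 for Scara5, 0.98 for Ddr2 and 0.73 for Cd248, and on the other side -0.91 for Mfap5 and -0.55 for Pi16. In the oridonin pair it lay between -0.44 (Ddr2) and 0.41 (Scara5). These replicate differences moved with transcript length over all genes. When 12302 genes with a known length were cut into 4 groups of near-equal size, from the shortest to the longest, the median replicate difference of the shortest genes was 0.10 in the oridonin pair and -0.21 in the vector pair. That of the longest genes was -0.29 in the oridonin pair and 0.55 in the vector pair. Ddr2 and Pdgfra were in the group of longest genes, with transcripts of 8590 and 6834 bases, and Mfap5, Dpt and Tcf21 in the shortest, with 1506, 1724 and 1788 bases. In the difference of oridonin and vector group means the 4 groups differed less, with medians of -0.10, -0.06, -0.03 and -0.01 from short to long. In Tet2 vector minus WT they ran from 0.20 and 0.06 to -0.08 and -0.20. With the length trend removed in each library, 8 members were lower without overlap in Tet2 oridonin against Tet2 vector, where 15% of all genes were, and 6 members were at an unadjusted p under 0.05 instead of 7, without Tcf21.

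**Figure D3:**
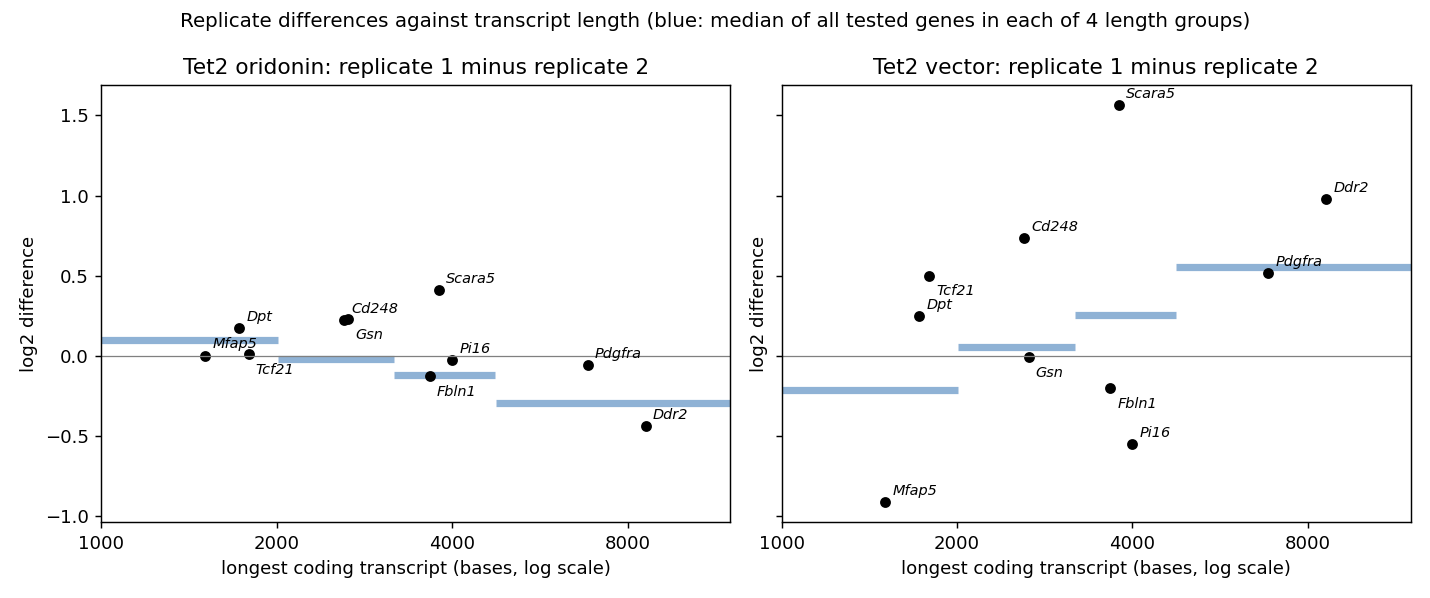
Log2 difference of replicate 1 minus replicate 2 against the length in bases of the longest coding transcript (log axis) in the Tet2 oridonin (left) and Tet2 vector (right) pairs. Black points are the 10 fibroblast identity genes and blue bars the median of all tested genes in each of 4 length groups. The bars run down from 0.10 to -0.29 with oridonin and up from -0.21 to 0.55 under vector, and Scara5 lies far above its bar in the vector pair.

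A list of 36 other fibroblast genes was set beside the members. In Tet2 oridonin against Tet2 vector 31 of the 36 were below 0, with a median log2 fold change of -0.43. Without overlap, 21 were lower and 0 were higher, and 0 passed the FDR. Over all genes tested, 59.8% were below 0, 17.8% were lower without overlap and 8.37% were higher. These shares are the background for each list of genes below in this comparison. Gas1, a membrane protein that limits growth, was at 18.3 and 16.0 CPM in the Tet2 oridonin hearts, against 31.4 and 43.9 CPM in the Tet2 vector hearts, with 32.7 CPM in WT. Mgp, matrix Gla protein, an inhibitor of calcification, was at 96.0 and 116 CPM in the Tet2 oridonin hearts, against 178 and 259 CPM in the Tet2 vector hearts, with 128 CPM in WT. Neither gene overlapped between oridonin and vector, at log2 fold changes of -1.12 for Gas1 and -1.02 for Mgp (limma, adjusted p = 1.00 for both).

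Of 24 listed genes of activated fibroblasts, 19 were tested. In oridonin against vector 18 of the 19 were below 0, with a median of -0.96, and 12 were lower without overlap. In Tet2 vector against WT 17 of the 19 were above 0, with a median of 1.29. The other 2 were below 0, where 49.6% of all genes were. Without overlap, 15 were higher, where 35.4% of all genes were, and 1 was lower, where 32.3% were. Both comparisons share the vector libraries. Sfrp2, a secreted protein that binds Wnt ligands, was at 1.16 and 1.58 CPM in the Tet2 oridonin hearts, against 6.82 and 9.72 CPM in the Tet2 vector hearts, with 0.816 CPM in WT. Its log2 fold change of oridonin over vector was -2.56 (SE 0.39; limma, adjusted p = 0.691). None of the 19 passed the FDR in these comparisons.

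Relatives of the members were described next. Of 6 tested genes of platelet-derived growth factor signalling, 3 were lower with oridonin without overlap and 1 was higher. The ligand gene Pdgfa was at 12.4 and 12.6 CPM in the Tet2 oridonin hearts, against 18.0 and 15.8 CPM in the Tet2 vector hearts, with 11 CPM in WT. The ligand gene Pdgfb, made largely by endothelium, was at 72.4 and 71.2 CPM in the Tet2 oridonin hearts, against 54.0 and 64.8 CPM in the Tet2 vector hearts, with 62.3 CPM in WT. Thus the groups did not overlap for either ligand, and lay in opposite directions. The receptor gene Pdgfrb, the pericyte counterpart of Pdgfra, was at 75.1 and 64.6 CPM in the Tet2 oridonin hearts, against 76.5 and 75.0 CPM in the Tet2 vector hearts, with 82.2 CPM in WT. Its log2 fold change of oridonin over vector was -0.12 (SE 0.18; limma, adjusted p = 1.00), and that of the other collagen receptor kinase, Ddr1, was 0.21.

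Of 7 tested relatives of Fbln1, 4 were lower with oridonin without overlap and 0 were higher, with a median log2 fold change of -0.31. Fbln2, an elastic fibre protein, was at 93.2 and 85.4 CPM in the Tet2 oridonin hearts, against 108 and 135 CPM in the Tet2 vector hearts, with 191 CPM in WT. Of 8 tested microfibril and elastic fibre genes beside Mfap5, 3 were lower without overlap and 1 was higher. Mfap4 was at 4.79 and 5.97 CPM in the Tet2 oridonin hearts, against 9.20 and 28.2 CPM in the Tet2 vector hearts, with 13.3 CPM in WT. As for Mfap5, replicate 2 was the higher vector library.

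Of 6 tested CAP family relatives of Pi16, 3 were lower with oridonin without overlap and 1 was higher. Crispld2 was at 55.7 and 54.4 CPM in the Tet2 oridonin hearts and 76.3 and 98.7 CPM in the Tet2 vector hearts. In WT it was at 75.3 CPM. Of the 3 tested class A scavenger receptor genes beside Scara5, 1, Colec12, was lower without overlap and 0 were higher. Colec12 was at 11.5 and 12.6 CPM in the Tet2 oridonin hearts and 19.1 and 18.3 CPM in the Tet2 vector hearts. In WT it was at 12.9 CPM. Both were lower without overlap, at log2 fold changes of -0.66 for Crispld2 and -0.63 for Colec12 (limma, adjusted p = 1.00 for both). For the other basic helix-loop-helix genes set beside Tcf21, 0 of 8 tested were lower with oridonin without overlap, and their median was -0.07. Of these 8, 1 was higher without overlap, Hand2, at a log2 fold change of 0.06. Of 5 tested gelsolin relatives 2 were lower without overlap and 0 were higher. The other group of lectin-like proteins to which Cd248 belongs (Thbd, Cd93, Clec14a) had a median of 0.08, with 1 lower and 1 higher without overlap.

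**Figure D4:**
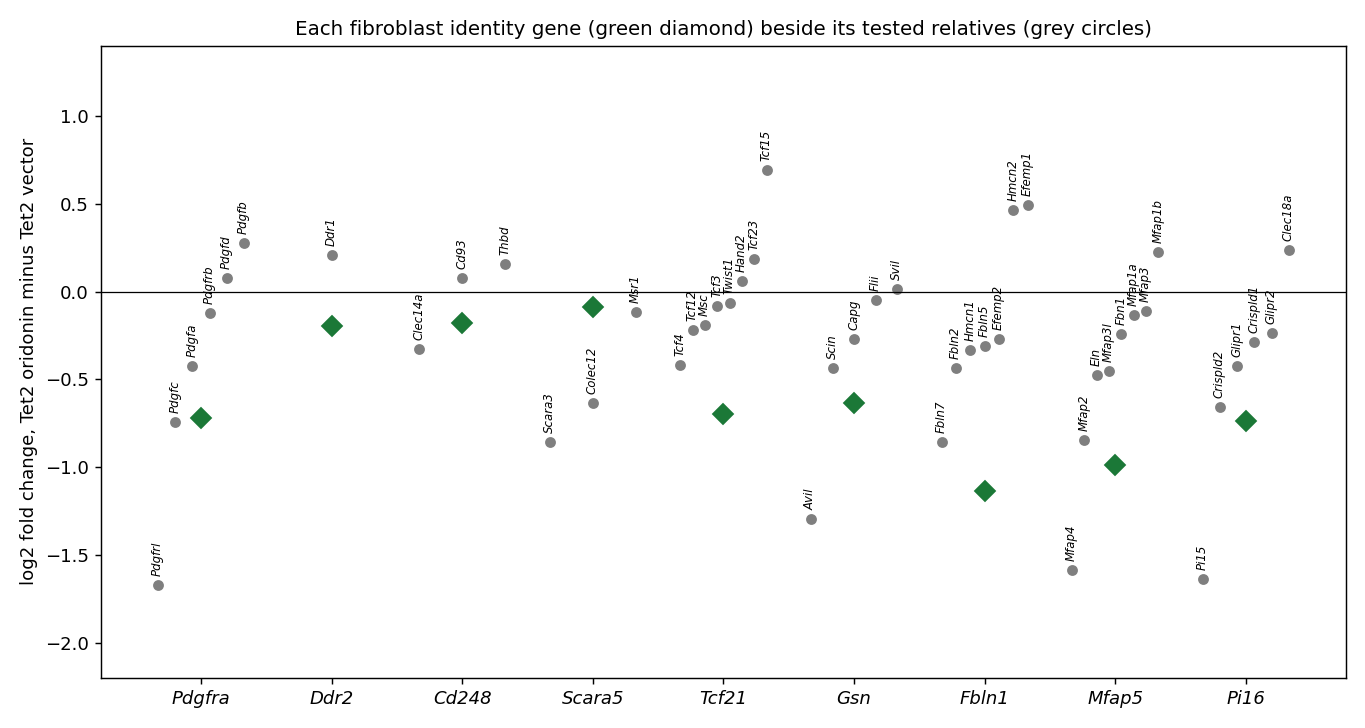
Log2 fold change of Tet2 oridonin over Tet2 vector for the fibroblast identity genes (green diamonds) and their tested relatives (grey circles), grouped on the horizontal axis by the member they relate to. Every diamond is below 0. The relatives of Tcf21 lie between -0.42 (Tcf4) and 0.69 (Tcf15), those of Mfap5 reach -1.59 (Mfap4).

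The profile of the members over the 5 libraries was taken as the median of their log2 levels, each centred on its own mean. Tcf21 lay closest to it, with a root mean square difference of 0.06 on the log2 scale, followed by Dpt at 0.14, and Scara5 lay farthest at 0.57. Of 11954 other genes, those most like this profile were Stk17b (0.04), Nucb2, Trim62, Gins1, Dpy19l1, Slc7a2, Samd14 and Cpxm1 (0.08). Stk17b was at 9.30 and 9.40 CPM in the Tet2 oridonin hearts, against 18.2 and 14.0 CPM in the Tet2 vector hearts, with 12.4 CPM in WT. Trim62 and Gins1 had at most 35 counts in a library, so that their likeness rests on small counts.

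Markers of other cells moved beside the members to different extents. Summed levels of 12 endothelial markers were 1391 and 1547 CPM in the Tet2 oridonin hearts, against 1373 and 1276 CPM in the Tet2 vector hearts, with 1521 CPM in WT. Those of 10 pericyte and smooth muscle markers were 1173 and 1176 CPM in the Tet2 oridonin hearts, against 1398 and 1154 CPM in the Tet2 vector hearts, with 1655 CPM in WT. For 12 macrophage markers the sums were 447 and 437 CPM with oridonin, 729 and 477 CPM under vector and 407 CPM in WT. The summed endothelial level was thus higher in both oridonin libraries than in either vector library, with 1391 against 1373 CPM at the closest. The summed macrophage level was lower in both, and the pericyte and smooth muscle sums overlapped. Gene by gene, 3 of the 12 endothelial markers were higher with oridonin without overlap and 1 was lower. Of the 12 macrophage markers 3 were lower and 1 was higher, where 17.8% and 8.37% of all genes were. Lyz2 alone held 171 and 173 CPM of the macrophage sums with oridonin, 338 and 215 CPM under vector and 179 CPM in WT.

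Red cell markers lay in the opposite direction to the members. The 5 found in the table summed to 387 and 319 CPM in the Tet2 oridonin hearts, against 247 and 147 CPM in the Tet2 vector hearts, with 368 CPM in WT. All 4 tested were higher with oridonin without overlap, with a median log2 fold change of 0.86, and lower in Tet2 vector than in WT, with a median of -0.99. No red cell gene passed the FDR.

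A list of tendon and valve markers shares 5 of its 11 genes, Chad, Fmod, Comp, Prg4 and Thbs4, with the fibroblast lists above. The 11 listed genes summed to 28.6 and 26.2 CPM in the Tet2 oridonin hearts, against 74.6 and 161 CPM in the Tet2 vector hearts, with 36.9 CPM in WT, and 5 of the 6 tested were lower with oridonin without overlap. The 5 shared genes made up 23.7 and 22.7 CPM of these sums with oridonin, 66.6 and 149.6 CPM under vector and 28.9 CPM in WT. The 6 others summed to 4.99 and 3.499 CPM with oridonin, 8.05 and 11.7 CPM under vector and 7.999 CPM in WT. Scx, a tendon transcription factor, overlapped between the groups, at 4.38 and 3.22 CPM with oridonin, 2.19 and 8.35 CPM under vector and 7.53 CPM in WT. The 10 epicardial markers in the table summed to 16.7 and 18.9 CPM in the Tet2 oridonin hearts, against 28.3 and 18.0 CPM in the Tet2 vector hearts, with 13.9 CPM in WT. Of the 4 tested, 1 was lower with oridonin without overlap and 0 were higher. Upk3b and Msln were at 0 in all libraries but Tet2 vector replicate 1, while Wt1 was at 4.44 and 7.27 CPM with oridonin, 4.57 and 4.17 CPM under vector and 5.53 CPM in WT. The part of the atrial, valve, epicardial, macrophage and red cell markers in the differences of the members was not tested. Without the atrial library, the log2 fold change of Tet2 oridonin over Tet2 vector stayed below 0 for Pdgfra, Tcf21, Gsn, Dpt, Fbln1, Mfap5 and Pi16. In that setting it was above 0 for Cd248, Ddr2 and Scara5.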

How the data were processed

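Poly-A RNA of hearts was made into libraries by a NEBNext Ultra protocol (per the labels). The submitters' processing notes name the build mm10, and for the aligner, the counter and the gene models no name is given in the sources used here. A table of log2 values was deposited by the authors, for 17818 gene symbols in 5 columns, each tied to a sample by the labels, with 0 columns left without a sample. Each value is the log2 of CPM with 0.5 added to the count, and the Tet2 columns mix 0.75 of their own value with 0.25 of the other replicate's. Undoing this gave whole counts (within 0.01) for 99.92% to 99.94% of genes, against 9.06% to 10.4% as deposited. The WT column gave 33.5% and appears to be a mix too, with values that are not a column of the table; it was used as deposited. A floor of 3 counts is 0.193 to 0.206 CPM. How the mix arose is not given.

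Limma 3.58.1 (trend, robust empirical Bayes; R 4.3.3) was fitted to the unmixed log2 values of all 5 libraries with group as the only term, with genes of at least 1 CPM in at least 2 libraries and Benjamini-Hochberg adjustment over 12734 genes at an FDR of 0.05. The lone WT library was assumed to vary like the Tet2 libraries. Gene positions and transcript lengths come from GENCODE M21 (GRCm38), and 96.6% of tested genes had a length.

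The members, lists and tests were chosen with earlier results of these data known. All members, Tet2 and Kdm5c, and relatives of members could be named. From other lists up to 4 tested genes with the smallest p in oridonin against vector could be named, and the 8 genes most like the members' profile were named. Other markers (Scx, Upk3b, Msln, Wt1) were named after their values were seen. Alternatives were the deposited values, voom weights, no filter, other scalings, only the groups compared, plain empirical Bayes, a replicate block and leaving out each Tet2 library. A crossed block and removal of the length trend were added after seeing the data.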

Additional observations from a re-analysis of the deposited data

How the results depend on the processing

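Of 420 values, the 30 log2 fold changes of members under 14 alternatives, 397 kept their sign and their side of the FDR, 12 changed sign and 11 came to pass the FDR. Voom weights, no filter, median-of-ratios scaling and plain empirical Bayes changed no call of a member and no count by over 1.5 times. On the deposited mixed values, where replicates are drawn together by construction, members past the FDR numbered 3 in oridonin against vector, 3 in Tet2 vector against WT and 2 in oridonin against WT, and genes 76, 2312 and 996. Members at an unadjusted p under 0.05 were then 4 in Tet2 vector against WT and 5 in oridonin against WT. With only the groups compared, these were 0 and 4, and genes past the FDR 103 and 1. Scaling to totals without mitochondrial genes moved the median of all genes in oridonin against WT by 0.11, from -0.06 to 0.05, and that of members to -0.25, and left 1 member below WT without overlap in Tet2 vector against WT. With the length trend removed, 2 genes passed the FDR in oridonin against vector, 1 gene passed in oridonin against WT, 2 members were above WT without overlap with oridonin, and Ddr2 was at 0.16 there. The causes were not tested.

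Replicate 1 minus replicate 2 correlated at -0.30 between oridonin and vector over 12734 genes. These differences also moved with transcript length, in opposite directions in the oridonin and vector pairs. The correlation therefore cannot decide whether the replicate numbers pair the libraries. A replicate block gave 9 genes past the FDR in oridonin against vector, 10 in Tet2 vector against WT and 6 in oridonin against WT, 0 members at an unadjusted p under 0.05 in Tet2 vector against WT, and 0.0027 for Ddr2 in oridonin against WT. A crossed block gave 44, 432 and 184 genes in the same order, 2, 0 and 1 members past the FDR, 4 members at an unadjusted p under 0.05 in oridonin against WT, and 0.22 for Ddr2 there.

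Leaving out each Tet2 library in turn, members past the FDR stayed at 0 in each comparison. In oridonin against vector, members at an unadjusted p under 0.05 ranged from 4 to 7, members lower without overlap from 7 to 10, higher from 0 to 3, genes past the FDR from 3 to 32 and the member median from -0.78 to -0.55. In Tet2 vector against WT these were 0 to 6, 2 to 4, 5 to 7, 2 to 107 and 0.19 to 0.43. In oridonin against WT they were 2 to 4, 8 to 9, 1 to 2, 0 to 24 and -0.41 to -0.33. Over these settings the share of all genes lower without overlap ran from 29.7% to 51.3% in oridonin against vector. It ran from 32.3% to 53.8% in Tet2 vector against WT and from 41.7% to 58.5% in oridonin against WT. The shares higher ran from 17% to 36.4%, 35.4% to 56.9% and 31.9% to 48.8%, in the same order. Signs changed in oridonin against vector for Cd248 (-0.55 to 0.19), Ddr2 (-0.69 to 0.29) and Scara5 (-0.87 to 0.70). In Tet2 vector against WT they changed for Ddr2 (-0.42 to 0.55), Scara5 (-1.49 to 0.079) and Mfap5 (-0.081 to 0.83), and in oridonin against WT for Ddr2 (-0.35 to 0.087). An exact permutation of 2 against 2 libraries cannot give a p below 0.333, and 1 WT library gives no spread of its own.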

Other observations

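Some relatives of the members separated the WT heart from all 4 Tet2 libraries, whatever the treatment. Standing apart from the single WT library was common among all genes tested. In Tet2 vector 32.3% were lower and 35.4% higher without overlap, and in Tet2 oridonin 41.7% were lower and 31.9% higher. The share apart from all 4 libraries was not counted. Hand2, a basic helix-loop-helix factor of heart development, was at 29.1 and 29.0 CPM in the Tet2 oridonin hearts and 28.3 and 27.5 CPM in the Tet2 vector hearts, with 72.8 CPM in the WT heart. Tcf23, of the same family, was at 5.74 and 3.22 CPM in the Tet2 oridonin hearts and 3.67 and 3.91 CPM in the Tet2 vector hearts, with 17.3 CPM in the WT heart. The log2 fold change of oridonin over WT was -1.32 for Hand2 (limma, adjusted p = 0.539) and -2.0 for Tcf23 (limma, adjusted p = 0.610), so that neither passed the FDR.

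Among the fibulin relatives, Hmcn2, a large matrix protein of the hemicentin type, was at 18.9 and 27.3 CPM in the Tet2 oridonin hearts and 20.3 and 13.3 CPM in the Tet2 vector hearts, with 51.1 CPM in the WT heart. Fbln7 went the other way, at 0.820 and 0.618 CPM in the Tet2 oridonin hearts and 1.16 and 1.5 CPM in the Tet2 vector hearts, with 0.0667 CPM, under the floor of 3 counts, in the WT heart. All of these set 4 libraries against a single WT library.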
